A study of Bos taurus and Ovis aries and Capra hircus with 27 samples.

Results

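Goat gene models whose predicted protein carries the heme-binding signature of cytochrome P450 enzymes were described across heart, liver and kidney. A model was taken when its identifier was in the deposited goat expression table and had no copy suffix (-D2 or -D3), its protein was 300 to 600 residues long, and the protein matched a motif of 10 residues. The motif had phenylalanine at place 1, glycine at places 4 and 10, cysteine at place 8, and arginine, histidine, proline or threonine at place 6. The rule used no expression value. Of the 22131 goat models listed, 18215 had a protein that could be searched, and 22 of these matched. The series lists 71943 gene models for goat, cattle and sheep. The protein file was cut off in its last entry, so further members may be missing. A further 17 goat proteins held the motif and were left out, 9 for the copy suffix and 8 for their length. The shortest members had 329 and 349 residues and the longest 575 and 593, and the nearest proteins beyond the limits had 182 and 699 residues.

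The series holds 27 messenger RNA libraries, of which the 9 of goat are used here, with 3 libraries each of heart, liver and kidney. The labels describe indigenous goats of about 3 years, without any treatment, and the study's methods describe unrelated adult females. Levels are given in FPKM, a fragment count corrected for transcript length and library size, so genes can be compared per length. These were whole tissues, and in such bulk samples a lower value in fewer cells of a type and in less RNA per cell cannot be told apart.

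Cytochrome P450 enzymes are heme proteins that insert an oxygen atom into a substrate. The cysteine of the heme-binding motif holds the heme iron, and a glutamate and an arginine further towards the N-terminus, on the K helix, stabilise the fold. In liver these enzymes oxidise drugs, plant compounds, fatty acids, steroids and bile acid precursors, in kidney they are known for vitamin D and fatty acid metabolism, and in heart for the oxidation of fatty acids to signalling lipids. Most sit in the endoplasmic reticulum by a hydrophobic N-terminal anchor, and some are in mitochondria. By convention, proteins of more than about 40% identity form a family and those of more than about 55% a subfamily. The files do not pair the goat identifiers with gene symbols, so the members go by their identifiers and by the families found among them, and no single enzyme activity is given for any of them.

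The label held for 19 of the 22 members and did not hold for 3. In GOAT_ENSBTAP00000016154, GOAT_ENSBTAP00000023994 and GOAT_ENSP00000310928, the motif lay inside a zinc finger pattern of spaced cysteines. Such a finger is part of the DNA-binding domain of nuclear receptors, which are transcription factors. No further finger was searched for. In these 3 proteins the motif started at residues 145, 113 and 41, with 439, 453 and 336 residues after it, and no glutamate-arginine motif lay 60 to 110 residues before it. None of the other 19 members hit any of the 3 in blastp. The zinc finger pattern was found in 1.45% of the 6078 goat proteins of 300 to 600 residues, against 0.51% for the heme motif. In the other 19 members the motif was followed by 51 to 71 residues, and all 19 had the glutamate-arginine motif. These 19 are called P450 members below, and the 3 zinc finger members are described on their own. Counts of members include the 3 unless P450 members are named.

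**Figure D1:**
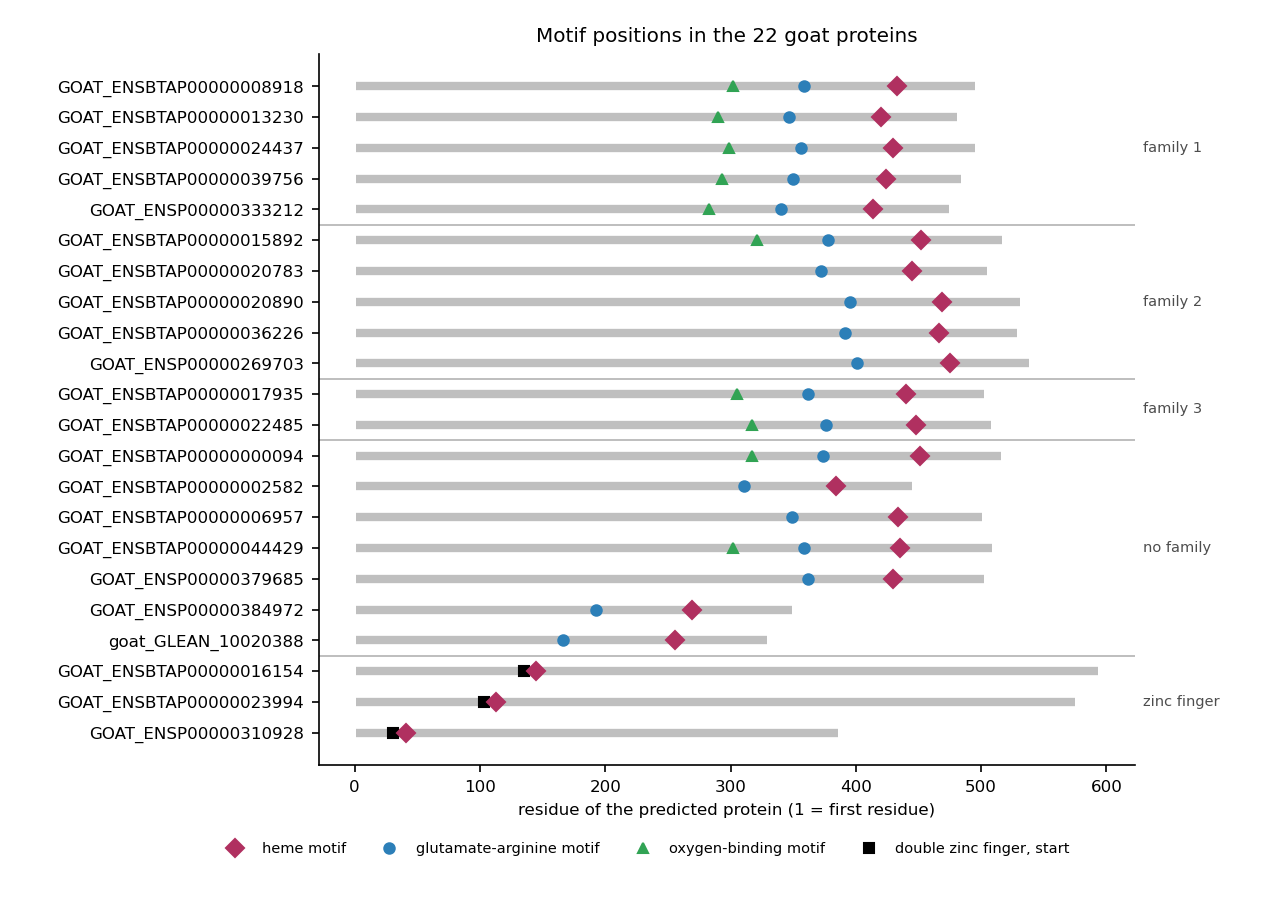
Position of motifs along the 22 proteins, in residues from the N-terminus. Grey bars give the protein length, diamonds the heme motif, circles the glutamate-arginine motif and triangles the oxygen-binding motif. Squares give the start of the zinc finger pattern, which is labelled double zinc finger but covers a single finger. The heme motif is near the C-terminus in 19 proteins and near the N-terminus in the 3 zinc finger proteins.

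At place 6 of the motif, 17 P450 members had arginine, which binds a propionate group of the heme. GOAT_ENSBTAP00000002582 had histidine there, as had the 3 zinc finger members, and GOAT_ENSBTAP00000006957 had threonine. At place 2, 10 P450 members had serine and 9 had glycine, whereas the 3 zinc finger members had histidine. The oxygen-binding motif of the I helix (alanine or glycine, glycine, any residue, aspartate or glutamate, threonine) was found in 10 members, all P450 members, and in 2.17% of the 6078 proteins of like length. The other 9 P450 members had no match. A hydrophobic stretch within the first 50 residues was found in 11 P450 members, against 22.3% of the 6078 proteins. Only 9 of the 19 P450 models started with methionine, and in the others the listed protein began with another residue.

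Of the 19 P450 members, 12 fell into 3 families at 40% identity over at least 70% of the protein. A protein joined a family through any of its members, so some pairs within a family were below 40%. Such pairs were GOAT_ENSBTAP00000024437 and GOAT_ENSP00000333212 (33.3%) and GOAT_ENSBTAP00000020783 and GOAT_ENSP00000269703 (38.9%), among others. Family 1 held GOAT_ENSBTAP00000024437, GOAT_ENSBTAP00000008918, GOAT_ENSBTAP00000013230, GOAT_ENSBTAP00000039756 and GOAT_ENSP00000333212. Family 2 held GOAT_ENSBTAP00000036226, GOAT_ENSBTAP00000020890, GOAT_ENSP00000269703, GOAT_ENSBTAP00000015892 and GOAT_ENSBTAP00000020783. Family 3 held GOAT_ENSBTAP00000017935 and GOAT_ENSBTAP00000022485, which were 41.0% identical. The closest pair of members by this measure was GOAT_ENSBTAP00000020890 and GOAT_ENSBTAP00000036226, at 83.9%. The other 7 P450 members were in no family. All 5 proteins of family 1 carried the oxygen-binding motif, and 1 of the 5 of family 2 did.

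**Figure D2:**
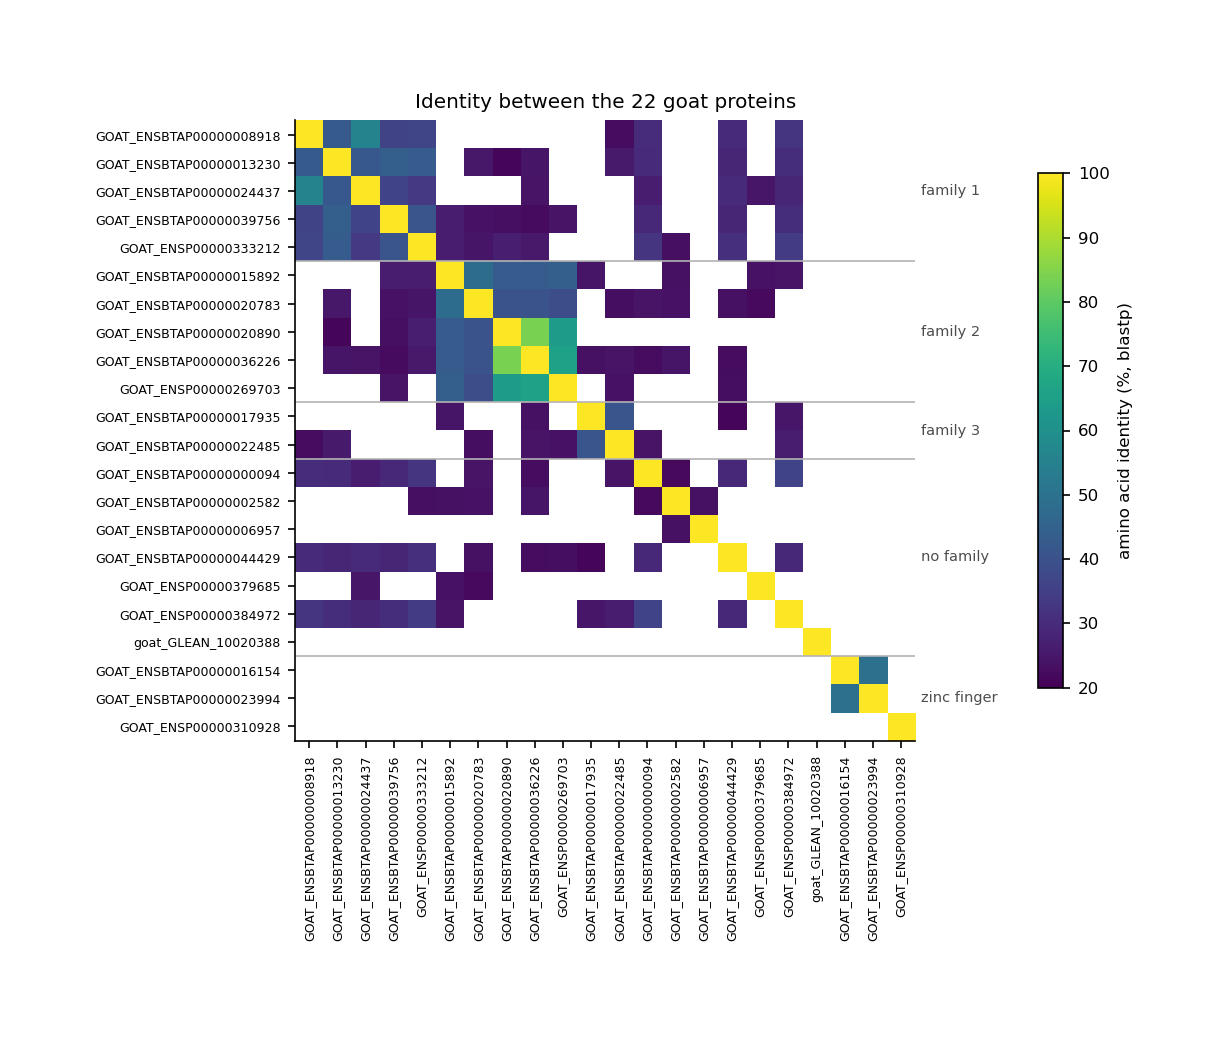
Amino acid identity in percent between the 22 proteins from blastp, as a colour. White cells had no alignment over at least 70% of the protein. The blocks on the diagonal are families 1, 2 and 3, and the zinc finger proteins aligned with no P450 member.

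Positions are those in the deposited protein file, on scaffolds of the goat assembly, which the study's methods give as CHIR_1.0. The 22 members lay on 20 scaffolds. In 7 places a member had a further motif-bearing model within 500000 bases, and these formed groups of related models. GOAT_ENSBTAP00000036226 (scaffold 224, 30121 to 45841, plus strand) and GOAT_ENSP00000269703 (scaffold 224, 122657 to 146208, minus strand) were 76815 bases apart, with the copy GOAT_ENSBTAP00000036226-D2 between them. GOAT_ENSBTAP00000020890 (scaffold 510, 328091 to 351799, plus strand) had a related copy 25878 bases away. GOAT_ENSBTAP00000013230 (scaffold 118, 2862622 to 2899349, minus strand) had copies at 43178 and 193607 bases, and GOAT_ENSBTAP00000008918 (scaffold 1481, 143620 to 171638, plus strand) had a copy at 38673 bases that was 83.6% identical. GOAT_ENSBTAP00000024437, the member with the highest level, lay at 128221 to 138607 of scaffold 1226 on the plus strand, with no such neighbour. How fragments shared by near-identical models were assigned was not stated in the sources used here, so values of such models are uncertain.

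The summed FPKM of the 9 libraries ranged from 574638 to 828807, and Pearson's r between replicates over the 13634 genes tested ranged from 0.918 to 0.985. No counts came with the values, and the sequencing depth behind them is therefore unknown. Tissue labels could not be checked against marker genes, since the identifiers carry no names. A gene was tested when it exceeded 0.5 FPKM in at least 3 of the 9 libraries, and it was called when the adjusted p of limma was at or below 0.05. A gene called higher in a tissue than in both others was elevated there.

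Of the 22 members, 16 passed the filter on low values and 6 did not. Of the 16, 5 exceeded 0.5 FPKM in liver alone (GOAT_ENSBTAP00000000094, GOAT_ENSBTAP00000006957, GOAT_ENSBTAP00000008918, GOAT_ENSBTAP00000020890 and GOAT_ENSBTAP00000036226). They passed only through the tissue where they were high and had to differ, so the counts below are over the other 11 members. All 3 zinc finger members were among the 11. Of these, GOAT_ENSBTAP00000016154 was called higher in heart than in liver. All other calls below were of P450 members. Between heart and liver, 9 of the 11 were called, 4 higher in heart and 5 higher in liver, beside 49.2% of all tested genes called, 29.6% higher in heart and 19.6% higher in liver. Between heart and kidney, 7 were called, 2 higher in heart and 5 higher in kidney, beside 63.2% of all tested genes, 17.9% higher in heart and 45.3% higher in kidney. Between liver and kidney, 6 were called, 4 higher in liver and 2 higher in kidney, beside 65% of all tested genes, 13.4% higher in liver and 51.6% higher in kidney. Of the 11, 4 were elevated in liver, beside 9.59% of all tested genes, 2 in heart, beside 14.5%, and 1 in kidney, beside 34.2%. All these shares of tested genes keep genes above 0.5 FPKM in a single tissue. Their selection thus differs from that of the 11, and shares over a like selection were not computed. The 5 members above 0.5 FPKM in liver alone were also called higher in liver in both comparisons, which brings the members elevated in liver to 9, and nothing is read from their calls.

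The median difference over the members depended on the filter. With the zinc finger members included, its sign turned under the study's filter. With all 22 members and no filter, the median difference of log2(FPKM + 1) was −0.38 for heart minus liver, −0.05 for heart minus kidney and 0.29 for liver minus kidney. Over the 16 tested members it was −2.97, −0.20 and 2.73, and over the 7 members that passed the study's filter (above 0.5 FPKM in over 80% of the 9 libraries) it was 0.29, 0.52 and −0.22. Over the P450 members alone, with no filter, it was −2.62, −0.08 and 0.60. Over those tested it was −4.35, −0.23 and 4.21, and over those passing the study's filter −0.55, 0.62 and 0.69. For the P450 members only heart minus kidney changed its sign. Over all tested genes the median difference was 0.10, −0.55 and −0.69. Over all 22131 genes with no filter it was 0, −0.03 and −0.11. Over the 10180 genes that passed the study's filter it was 0.13, −0.58 and −0.72. The scaling of libraries moved the background. Under median ratio scaling, 50.1%, 49.9% and 51.2% of the called genes were higher in the first tissue of the 3 comparisons, instead of 60.2%, 28.3% and 20.6%, and the median differences were −0.04, −0.04 and −0.01. Under equal sums these shares were 41%, 20.3% and 22%. For the 16 tested members the share higher in the first tissue was 28.6%, 28.6% and 81.8%, under median ratio scaling it was 28.6%, 42.9% and 91.7%, and under equal sums it was 16.7%, 14.3% and 83.3%. The tested members include the 5 that passed the filter through liver alone and had to differ. Nothing is therefore read from the medians and shares over tested members. Of the 9, 7 and 6 calls of the other 11 members, 4, 2 and 4 were higher in the first tissue.

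**Figure D3:**
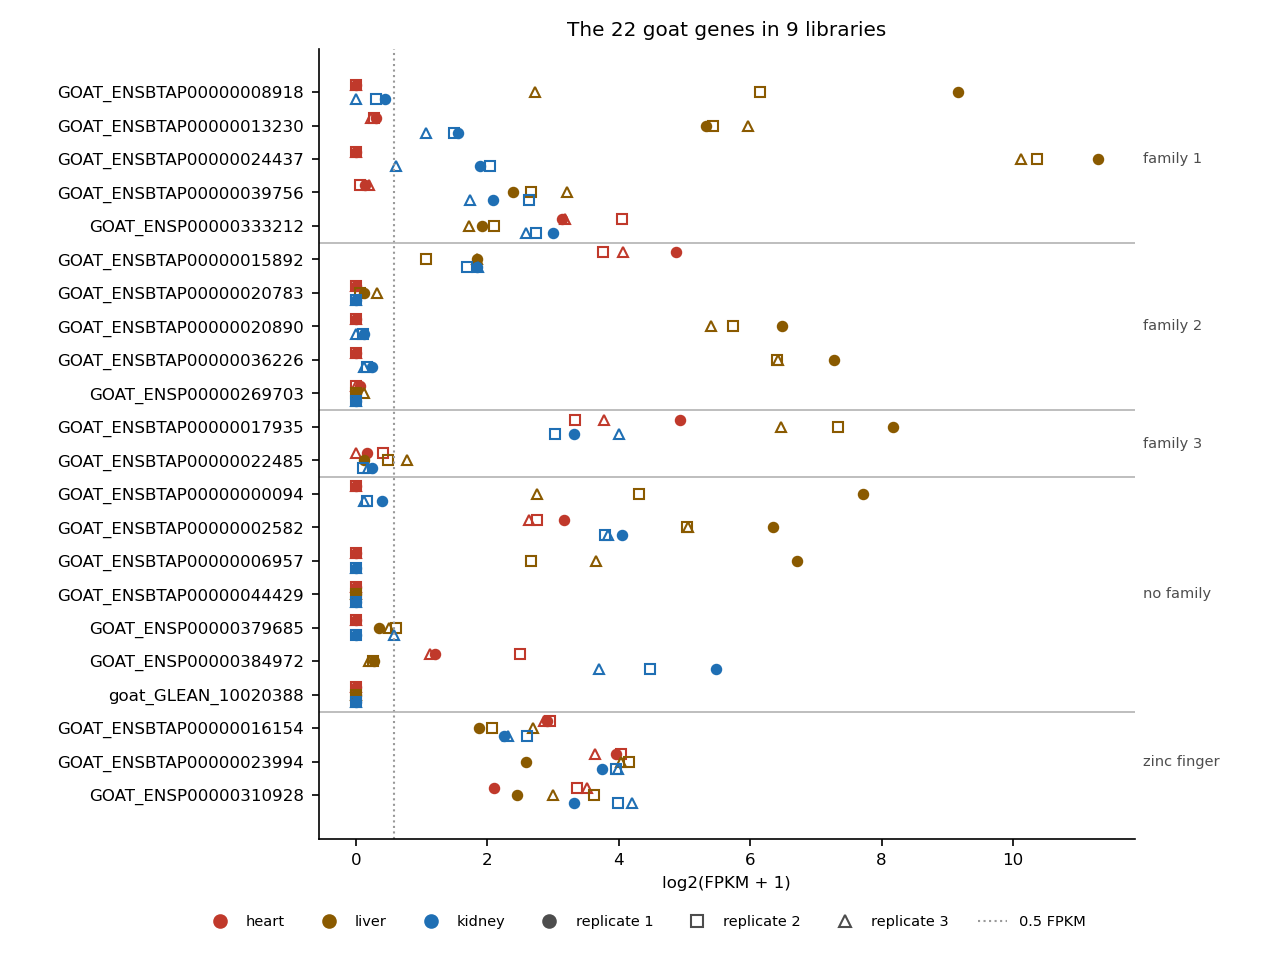
Level of the 22 genes in the 9 goat libraries on the log2(FPKM + 1) axis. Colours mark the tissue, shapes the replicate and the dotted line 0.5 FPKM. Families 1 and 2 each hold genes far to the right in liver and 1 gene that is higher in heart.

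**Figure D4:**
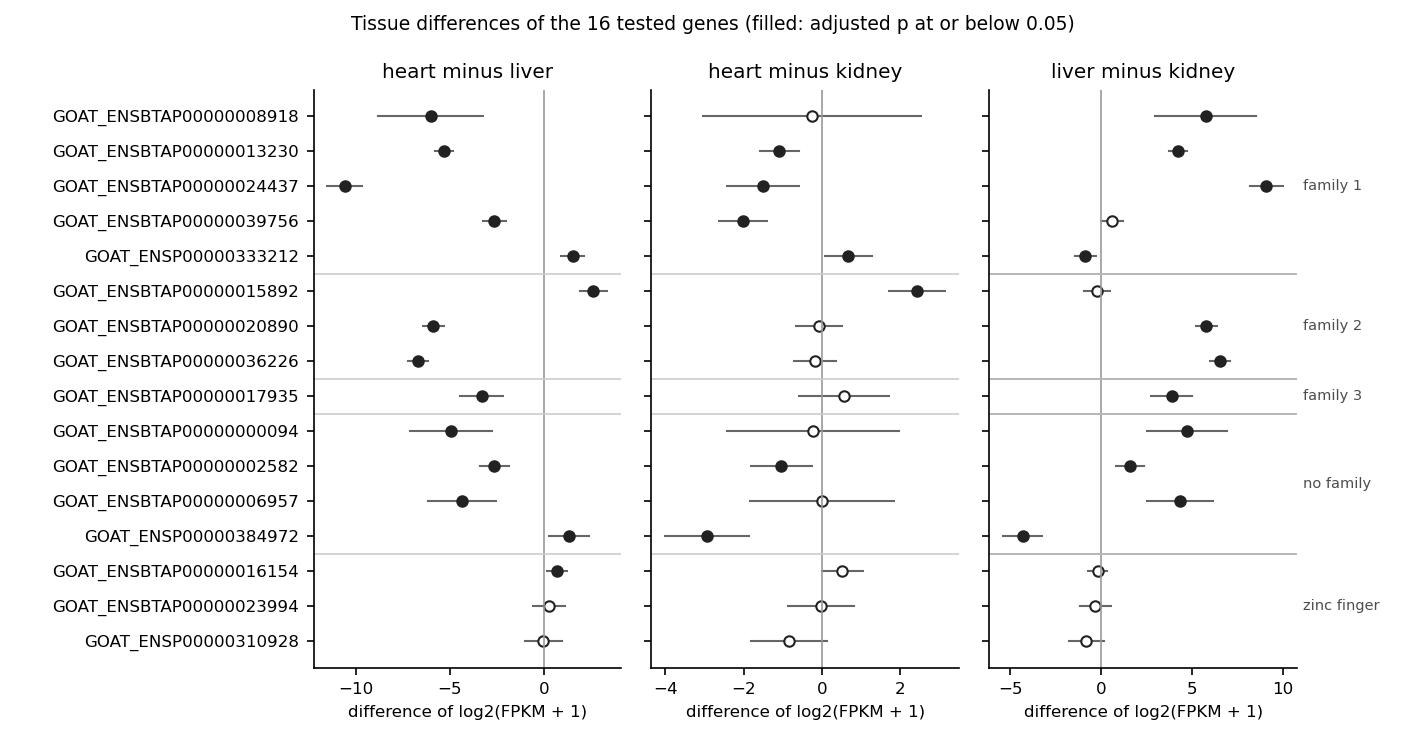
Difference of log2(FPKM + 1) between tissues for the 16 tested genes, with the 95% interval of the limma fit as bars and filled points for calls. Differences against a tissue where a gene is listed at 0 depend on the pseudocount of 1 and are no measure of size. Points left of 0 in the first panel are higher in liver than in heart.

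In family 1, the member with the highest level of all was GOAT_ENSBTAP00000024437. It measured 2502, 1312 and 1116 FPKM in liver, 2.705, 3.105 and 0.533 FPKM in kidney, and was listed at 0 in all heart libraries. Its mean of 1643 FPKM ranked 52 among the 22131 goat genes in liver. Every liver library was above every kidney library, and the difference of log2(FPKM + 1) was 9.08 ± 0.41 (SE), adjusted p = 2.03e-07. Against heart it was called as well (adjusted p = 3.85e-08), and no fold is given, since heart was at 0.

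GOAT_ENSBTAP00000008918, a member of the same family and 55.7% identical to it, varied more. It measured 571, 69.7 and 5.62 FPKM in liver and 0.357, 0.243 and 0 FPKM in kidney, and it was listed at 0 in heart. The liver libraries lay above all others but spanned 102-fold. The difference between liver and kidney was 5.76 ± 1.23 (SE) on the log2(FPKM + 1) scale, in a gene that passed the filter through liver alone.

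GOAT_ENSBTAP00000013230 measured 39.1, 42.5 and 61.6 FPKM in liver, 1.92, 1.82 and 1.09 FPKM in kidney, and 0.242, 0.217 and 0.174 FPKM in heart. The 3 tissues did not overlap, with liver highest, kidney intermediate and heart lowest. Liver exceeded kidney by 4.21 ± 0.22 (SE) on the log2(FPKM + 1) scale, adjusted p = 5.04e-07, and heart minus kidney was −1.09 ± 0.22 (SE), adjusted p = 0.00197.

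GOAT_ENSBTAP00000039756 of family 1 was present in both liver and kidney. Levels were 4.24, 5.36 and 8.28 FPKM in liver, 3.25, 5.22 and 2.34 FPKM in kidney, and 0.106, 0.0474 and 0.144 FPKM in heart. Liver and kidney overlapped, and both lay above heart, with a heart minus liver difference of −2.62 ± 0.27 (SE) and a heart minus kidney difference of −2.02 ± 0.27 (SE), adjusted p = 3.91e-05 and 0.000187. Liver minus kidney was 0.60 (95% interval −0.01 to 1.22, adjusted p = 0.0784). It was called under median ratio scaling at 1.32 (adjusted p = 0.000969), under quantile normalization and equal sums, and without liver replicate 1 (adjusted p = 0.0398) or kidney replicate 2 (adjusted p = 0.0248).

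The remaining member of family 1, GOAT_ENSP00000333212, was lowest in liver. It measured 7.78, 15.6 and 8.05 FPKM in heart, 6.99, 5.70 and 5.02 FPKM in kidney, and 2.79, 3.31 and 2.31 FPKM in liver. No values overlapped between tissues. Heart minus liver was 1.53 ± 0.27 (SE), adjusted p = 0.00109, and liver minus kidney was −0.86 ± 0.27 (SE), adjusted p = 0.0181. Liver minus kidney was not called without liver replicate 3 or without kidney replicate 1, at adjusted p = 0.0527 and 0.0566, or under median ratio scaling, where it was −0.13. Heart minus kidney, at 0.68 ± 0.27 (SE), was called at the limit, adjusted p = 0.0498. It was 0.38 without heart replicate 2 (adjusted p = 0.171), and was not called without liver replicates 1, 2 or 3 in turn (adjusted p = 0.0578, 0.0632 and 0.0558) or without kidney replicates 2 or 3 (adjusted p = 0.114 and 0.14). Scaling moved it as well, to 0.33 under equal sums (adjusted p = 0.294), 1.26 under median ratio scaling (adjusted p = 0.00418) and 1.35 under quantile normalization (adjusted p = 0.0018).

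Family 2 held a close pair of liver genes. GOAT_ENSBTAP00000036226 measured 155, 83.8 and 85.1 FPKM in liver and 0.180, 0.1203 and 0.0922 FPKM in kidney, and GOAT_ENSBTAP00000020890 measured 88.7, 52.2 and 41.3 FPKM in liver and 0.0894, 0.0799 and 0 FPKM in kidney. Both were listed at 0 in all heart libraries. In both genes liver replicate 1 was highest and all liver values lay far above the rest. Liver minus kidney was 6.53 ± 0.24 (SE) for GOAT_ENSBTAP00000036226 and 5.80 ± 0.26 (SE) for GOAT_ENSBTAP00000020890. The kidney values of both were far below 0.5 FPKM, and both passed the filter through liver alone.

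GOAT_ENSBTAP00000015892 of family 2, between 42.9% and 48.3% identical to the other members of the family, had another pattern. It measured 28.1, 12.6 and 15.7 FPKM in heart, 2.61, 1.09 and 2.58 FPKM in liver, and 2.61, 2.23 and 2.65 FPKM in kidney. All heart values lay above all others, while liver and kidney overlapped. Heart exceeded liver by 2.65 ± 0.31 (SE), adjusted p = 9.33e-05, and kidney by 2.43 ± 0.31 (SE), adjusted p = 0.000142. It was the highest P450 member in heart by mean level and made up between 26.1% and 37.3% of the summed FPKM of the 19 P450 members in each heart library. GOAT_ENSBTAP00000020783 reached 0.245 FPKM in liver and was listed at 0 in heart and kidney, and GOAT_ENSP00000269703 did not exceed 0.0848 FPKM in any library. Neither was tested.

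In family 3, GOAT_ENSBTAP00000017935 was expressed in every library. Levels were 288, 160 and 87.3 FPKM in liver, 29.6, 9.13 and 12.7 FPKM in heart, and 8.95, 7.18 and 15.1 FPKM in kidney. All liver values were above all others, and heart and kidney overlapped. Heart minus liver was −3.31 ± 0.51 (SE), adjusted p = 0.000523, and liver minus kidney was 3.87 ± 0.51 (SE), adjusted p = 0.000162. Heart minus kidney was 0.57 (95% interval −0.59 to 1.72), adjusted p = 0.359. Its relative GOAT_ENSBTAP00000022485 was at most 0.714 FPKM, in liver replicate 3, and was not tested.

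Among the 7 P450 members in no family, 3 were elevated in liver. GOAT_ENSBTAP00000000094 measured 211, 18.9 and 5.78 FPKM in liver, at most 0.318 FPKM in kidney, and 0 in heart. GOAT_ENSBTAP00000006957, the member with threonine at place 6, measured 104, 5.35 and 11.6 FPKM in liver and was listed at 0 in heart and kidney. The liver values of these genes spanned 36.4-fold and 19.4-fold. Liver minus kidney of GOAT_ENSBTAP00000000094 was 4.70 ± 0.98 (SE). Both genes passed the filter through liver alone.

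GOAT_ENSBTAP00000002582, the P450 member with histidine at place 6, was present in all tissues. Levels were 80.8, 31.9 and 32.4 FPKM in liver, 15.6, 12.8 and 13.4 FPKM in kidney, and 8.03, 5.73 and 5.23 FPKM in heart, with no overlap. Heart minus liver was −2.63 ± 0.34 (SE), adjusted p = 0.000176, and liver minus kidney was 1.59 ± 0.34 (SE), adjusted p = 0.0029. Heart minus kidney was −1.04 ± 0.34 (SE), adjusted p = 0.024. That call was lost without heart replicates 2 or 3 in turn (adjusted p = 0.0683 and 0.0768), without kidney replicates 1 or 3 (adjusted p = 0.0637 and 0.0515), and under median ratio scaling, where the value was −0.42 (adjusted p = 0.445). Its closest goat model, GOAT_ENSBTAP00000050244-D2, was 22.6% identical.

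Kidney held 1 elevated member, GOAT_ENSP00000384972. It measured 43.9, 21.2 and 12.0 FPKM in kidney, 1.31, 4.66 and 1.19 FPKM in heart, and 0.215, 0.200 and 0.147 FPKM in liver. The tissues did not overlap, and liver was lowest. Liver minus kidney was −4.30 ± 0.47 (SE), adjusted p = 5.23e-05, and heart minus kidney was −2.94 ± 0.47 (SE), adjusted p = 0.000527. Heart minus liver was 1.37 ± 0.47 (SE), adjusted p = 0.0369. The last call was lost without heart replicate 2, where the value was 0.92 (adjusted p = 0.131), without liver replicates 1, 2 or 3 in turn (adjusted p = 0.0702, 0.0825 and 0.0835), and without kidney replicate 2 (adjusted p = 0.0534). It was also lost under quantile normalization and equal sums (adjusted p = 0.056 and 0.0564). At 349 residues this was among the shortest proteins of the P450 members.

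The 3 other members in no family were low. GOAT_ENSP00000379685 measured 0.273, 0.532 and 0.425 FPKM in liver and 0.499 FPKM in kidney replicate 3, and was listed at 0 elsewhere. Its neighbour goat_GLEAN_10020388, 32276 bases away on scaffold 259 and 91.4% identical over 49% of its length, was listed at 0 in all 9 libraries. GOAT_ENSBTAP00000044429 was listed at 0 in all 9 libraries as well, as was a copy with 100% identity. A value of 0 can be a failed estimate, so no absence is read from these entries.

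The zinc finger members were expressed in all 9 libraries at closer levels. GOAT_ENSBTAP00000023994 measured 14.5, 15.5 and 11.5 FPKM in heart, 4.99, 16.8 and 15.5 FPKM in liver, and 12.5, 14.5 and 14.9 FPKM in kidney, and the tissues overlapped. Its heart minus liver difference was 0.29 (95% interval −0.55 to 1.14) and it was not called in any comparison, with adjusted p from 0.492 to 0.975. GOAT_ENSBTAP00000016154, which was 49.4% identical to it, measured 6.49, 6.77 and 6.29 FPKM in heart, 2.65, 3.23 and 5.47 FPKM in liver, and 3.78, 5.07 and 3.98 FPKM in kidney.

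All heart values of GOAT_ENSBTAP00000016154 lay above the others, and heart minus liver was 0.70 ± 0.23 (SE), adjusted p = 0.0312. The call was lost without heart replicates 1, 2 or 3 in turn (adjusted p = 0.0686, 0.0849 and 0.0683), without liver replicates 1 or 2 (adjusted p = 0.0887 and 0.0959) and under equal sums (0.31, adjusted p = 0.271). Heart minus kidney was 0.52 (adjusted p = 0.0758), and it was called under median ratio scaling at 1.07 (adjusted p = 0.000821), under quantile normalization and without liver replicate 3 (adjusted p = 0.0257). Liver minus kidney was −0.18 (adjusted p = 0.519), and changed its sign to 0.53 under median ratio scaling (adjusted p = 0.0324).

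GOAT_ENSP00000310928 measured 3.30, 9.31 and 10.5 FPKM in heart, 4.47, 11.3 and 7.02 FPKM in liver, and 8.98, 14.8 and 17.5 FPKM in kidney. The tissues overlapped, and in each tissue replicate 1 was lowest. Heart minus kidney was −0.84 ± 0.43 (SE) and liver minus kidney was −0.81 ± 0.43 (SE), adjusted p = 0.119 and 0.128. With the replicate number as a block both were called, with an SE of 0.22 and adjusted p = 0.00997 and 0.0114, and the gene was then elevated in kidney, as a second member. Heart minus kidney was also called under equal sums (adjusted p = 0.0367).

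The levels of the liver genes differed among the liver libraries. Of the 9 members elevated in liver, 8 were highest in liver replicate 1 and 1, GOAT_ENSBTAP00000013230, in liver replicate 3. Over all tested genes above 0.5 FPKM in liver, elevated there or not, replicate 1 was highest in 24.9%, replicate 2 in 19% and replicate 3 in 56.2%. These shares were not computed for the genes elevated in liver alone. In median ratio scaling the factors of liver replicates 1, 2 and 3 were 0.648, 0.746 and 0.904. In 4 of the 9 the highest liver value was more than 3-fold the lowest, and in 5 it was at most 3-fold. The source of this spread was not tested.

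**Figure D5:**
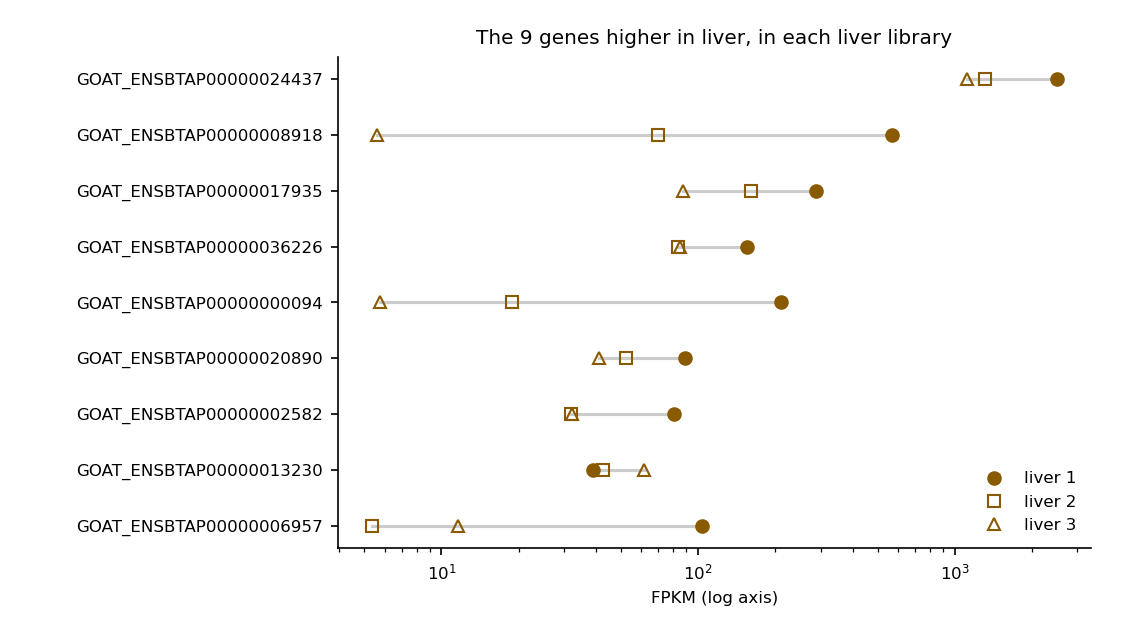
Level in FPKM, on a log axis, of the 9 members elevated in liver, with 1 point for each liver library. Grey lines join the lowest and the highest library. The span runs from 1.57-fold in GOAT_ENSBTAP00000013230 to 102-fold in GOAT_ENSBTAP00000008918, and liver replicate 1 is the rightmost point in 8 of 9 genes.

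Summed over the 19 P450 members, the level was 2433 ± 1409 FPKM in liver, 66.6 ± 18.0 FPKM in kidney and 55.6 ± 17.3 FPKM in heart (SD, n = 3 each). The liver libraries held 4049, 1788 and 1461 FPKM, far above the highest kidney library at 87.0 and the highest heart library at 75.4. GOAT_ENSBTAP00000024437 alone gave 61.8%, 73.4% and 76.4% of the liver sum. Heart and kidney sums overlapped, although in each of the 3 same-numbered pairs kidney was above heart, as it was under equal sums. Under median ratio scaling kidney was above heart in 0 of the 3 pairs. For all 22 members the sums were 2456 ± 1399 FPKM in liver, 98.6 ± 12.1 in kidney and 83.7 ± 14.5 in heart, and the log2 ratio of heart over kidney, −0.24, turned to 0.44 under median ratio scaling. By family, the liver sum was 1915 ± 1049 FPKM in family 1, 171 ± 65.3 in family 2 and 179 ± 101 in family 3. In kidney, GOAT_ENSP00000384972 gave 50.4%, 35.3% and 22.7% of the sum of the 19.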

How the data were processed

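The authors prepared strand-specific (dUTP) libraries, mapped filtered reads with TopHat and quantified genes with Cufflinks (version 2.2.1 per the submitters' processing notes). The study's methods map goat reads to CHIR_1.0, while the processing notes name another build for every sample. The authors deposited log2 values, log2(FPKM + 1), and these were turned back into FPKM (2 raised to the value, less 1). No counts were given and depth is unknown. Goat heart columns carry other names than the labels' descriptions and were matched by title; the study states that these heart libraries were also deposited in another series.

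Proteins came from a deposited goat file with 18260 entries, whose last entry was cut off, so that 18215 of the 22131 listed models had a protein. Families were single-linkage clusters of blastp hits (BLAST 2.17.0, at least 40% identity over 70% of the query). The glutamate-arginine motif was searched 60 to 110 residues before the heme motif. A hydrophobic N-terminus was a mean Kyte-Doolittle value of at least 1.6 over 19 residues.

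Tissues were compared on the deposited scale in a single fit of all 9 goat libraries (limma 3.58.1, R 4.3.3), with tissue as the factor and a trended prior variance. Each contrast was adjusted by Benjamini-Hochberg over 13634 genes. Differences on this scale understate the change of low genes. In a simulation over the 13634 genes, the heart and liver contrast found 75% of the 200 genes given a difference of 2 log2 units. Of its calls, 3.85% were false. The simulated libraries varied independently and only these 200 genes differed, so this share need not hold for the calls reported. Replicate numbers come from the sample titles; all 9 same-numbered pairs of libraries deviated together (r 0.146 to 0.472, against −0.417 to 0.134 for other pairs), so the numbers were taken to pair the libraries. The fit reported has no such block, since the study's methods name none, so its p-values leave this pairing out. The block was an alternative. With it 7708 of all tested genes were called for heart minus liver, against 6711 without it. The study names 3 unrelated females, and p-values measure the spread between these samples.

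Members and lists were chosen with earlier results of these data known. Named members were those elevated in a tissue, the 5 highest in each tissue and those called nowhere; the remaining members were described too. Planned names, roles, pathway genes and cell markers needed reference proteins and were not analysed here. Alternatives were another pseudocount, filters, scalings, a minimum difference, a replicate block, no trend, leaving out each library and, added after seeing the data, leaving out the zinc finger members.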

Additional observations from a re-analysis of the deposited data

How the results depend on the processing

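Of the 32 called differences of the 16 tested members, 27 kept their call and direction under all alternatives in which they had a value. The other 5 lost their call in 38 of 555 alternative values, and none was reversed. The 5 are heart minus kidney of GOAT_ENSBTAP00000002582, heart minus kidney and liver minus kidney of GOAT_ENSP00000333212, heart minus liver of GOAT_ENSP00000384972 and heart minus liver of GOAT_ENSBTAP00000016154. With no filter, each of these but liver minus kidney of GOAT_ENSP00000333212 was lost. The 27 include the heart minus liver and liver minus kidney calls of the members above 0.5 FPKM in liver alone. Those had to differ, and nothing is read from them. Members that did not pass the study's filter had no value under it. Under the study's filter (above 0.5 FPKM in over 80% of the libraries) 7 members were tested, since most liver genes were low elsewhere, and 5 members were called for heart minus liver, 3 for heart minus kidney and 3 for liver minus kidney, with 2 elevated in liver, 2 in heart and 0 in kidney. Of the 5, 3 were higher in heart and 2 in liver, and without the zinc finger members 2 were higher in heart and 2 in liver. Of the 10180 genes that passed this filter, 47.7%, 63.3% and 63.5% were called, and 12.8%, 6.15% and 34.4% were elevated in heart, liver and kidney. Members elevated in heart numbered 1 with a pseudocount of 0.1, 1 with no filter, 1 under equal sums and 1 with a minimum difference of 1 on the log2 scale, but 3 under median ratio scaling and 3 under quantile normalization, against 2 as reported. Without the zinc finger members the number was 2 under median ratio scaling and 2 under quantile normalization. When each library was left out in turn, members elevated in heart numbered 1 to 2. They numbered 1 without heart replicate 2, liver replicates 1 or 2, or kidney replicates 2 or 3. With the replicate block 2 members were elevated in kidney, the added one being GOAT_ENSP00000310928, and the block changed no other call. The log2 ratio of the summed FPKM of members was 4.75 for liver over heart, 4.502 for liver over kidney and −0.24 for heart over kidney. Without the zinc finger members the first and second were 5.35 and 5.08. Under median ratio scaling liver over kidney was 5.41 and heart over kidney was reversed to 0.44, and under equal sums heart over kidney was −0.63; the cause was not tested. Without counts, the precision of values below 0.5 FPKM is unknown, and 3 libraries per tissue limit all comparisons.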

Other observations

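Goat models with the heme motif that the rule left out for length or a copy suffix had levels of their own. Of those left out for length, GOAT_ENSBTAP00000020020, of 763 residues, measured 353, 425 and 339 FPKM in heart. GOAT_ENSP00000400971, of 150 residues, measured 82.2, 66.4 and 68.1 FPKM there. The others left out for length were at most 11.4 FPKM in heart, and no member exceeded 29.6 FPKM there. Whether the models left out for length are P450 enzymes was not tested. GOAT_ENSBTAP00000013230-D2 and GOAT_ENSBTAP00000013230-D3, which were 81.7% and 80.8% identical to GOAT_ENSBTAP00000013230, measured 13.7, 21.995 and 74.0 FPKM and 18.1, 26.6 and 23.9 FPKM in kidney, where GOAT_ENSBTAP00000013230 measured at most 1.92 FPKM. In liver they measured 18.5, 23.4 and 31.4 FPKM and 4.00, 3.33 and 4.65 FPKM. All kidney values of GOAT_ENSBTAP00000013230-D3 were above its liver values, and those of GOAT_ENSBTAP00000013230-D2 overlapped with liver.

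In family 2, the copies GOAT_ENSBTAP00000048143-D2 and GOAT_ENSBTAP00000036241-D2 measured 93.9, 115 and 27.6 FPKM and 23.8, 35.0 and 31.5 FPKM in liver, and were listed at 0 in heart. GOAT_ENSBTAP00000036226-D2, which lies between 2 members on scaffold 224, measured at most 0.282 FPKM in liver and 0.285, 2.13 and 2.94 FPKM in kidney. GOAT_ENSBTAP00000008918-D2 measured 27.9, 1.45 and 0.603 FPKM in liver, highest in replicate 1 like GOAT_ENSBTAP00000008918. Other copies differed in this. GOAT_ENSBTAP00000048143-D2, GOAT_ENSBTAP00000036241-D2 and GOAT_ENSBTAP00000050244-D2 were highest in liver replicate 2. GOAT_ENSBTAP00000013230-D2 and GOAT_ENSBTAP00000013230-D3 were highest in liver replicate 3. These models were not among the members, and no test was made between them.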
